A study of Rattus norvegicus with 18 samples.

Results

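The 54 genes described here encode the machinery that brings a secretory granule to the plasma membrane and fuses it there: granuphilin and the other synaptotagmin-like proteins, the synaptotagmins, the SNARE proteins and their binding partners, the complexins, the priming and docking factors and the exocyst. A gene was followed through the probe set that the array annotation assigns to it alone, and where several existed, through the one of highest mean log2 signal over the 18 arrays. Of the 54 genes, 52 had such a probe set, out of 14217 genes on the array. Sytl5 and Exoc4 had none. Of the 52, 45 lay in the brighter 50% of probe sets and were tested. The other 7 (Sytl1, Sytl2, Sytl3, Syt1, Unc13a, Rims1 and Doc2b) were dim and are given as values without a test.

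The cells were clone #4S2, 1 clone of the rat insulinoma line INS-1 that carries a doxycycline-responsive activator and, behind a tetracycline-response promoter, mouse proinsulin 2 with the C96Y change joined to the green fluorescent protein EGFP. The C96Y change removes a cysteine that proinsulin needs for a disulfide bond, so that the protein misfolds in the endoplasmic reticulum (ER). Doxycycline was given at 2 µg/ml, with cells collected after 24 h, after 48 h and after 5 days, and control cells of the same clone, which carry the same transgene, were collected alongside without the drug. Each of the 6 groups holds 3 arrays, from 3 independent experiments. The labels number the replicates within a time and do not state that equal numbers at different times are the same experiment. No array here shows doxycycline in cells without the transgene, so on these arrays the drug and the misfolded protein cannot be told apart. The paper states, without showing the data, that the drug left Grp78 and Chop unaltered in a parental INS-1 line, and it names no exocytosis gene there.

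Insulin granules fuse when SNARE proteins on the granule (VAMPs) and on the plasma membrane (syntaxins and SNAP-25) zip into a tight bundle. Before fusion, Rab27a effectors such as granuphilin hold the granule at the membrane, Munc18 proteins, Munc13 and CAPS prepare the SNAREs, and complexins bind the assembled bundle. Calcium entering the beta cell then acts through synaptotagmins to trigger release, after which the ATPase NSF and its SNAP adaptors take the spent SNARE bundles apart.

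The libraries were first set against their labels with 10 genes known to rise when proteins misfold in the ER. All 10 were higher with doxycycline in each of the 6 pairs of 24 h and 48 h. At 5 days all 10 were lower in the library labelled doxycycline, replicate 1, than in the library labelled control, replicate 1, with a median log2 ratio of -1.72. Of the 10, 9 were higher in the replicate 2 pair and 10 in the replicate 3 pair. The library labelled doxycycline, 5 days, replicate 2 also had a GAPDH 3'/5' signal ratio, a sign of RNA integrity, of 2.91, above those of the other 17 arrays. The 5-day values are therefore reported pair by pair, as labelled, after those of 24 h and 48 h. Of 12 beta cell markers, 9 had a probe set and all 9 were above the filter in these cells, the 5 acinar cell markers were all dim, and of 5 fibroblast markers 4 were dim. In bulk RNA, fewer cells of a type and less RNA per cell cannot be told apart, and with 3 arrays a group the number of arrays limits the precision.

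After 24 h of doxycycline, Sytl4 (granuphilin) was the member that passed the test, and it fell. After 48 h, Sytl4, Syt13, Cplx2 and Exoc7 fell and Syt4 rose. None of the 16 SNARE genes tested passed at either time. By limma on the paired arrays, with Benjamini-Hochberg adjustment over all 15521 probe sets tested, 1 of the 45 members fell at 24 h (2.22%, against 0.0129% of all probe sets tested) and 0 rose (against 0.193%). At 48 h, 4 fell (8.89%, against 1.19%) and 1 rose (2.22%, against 2.33%). Unadjusted p-values under 0.05 went to 5 members above control and 6 below it at 24 h (7.75% and 6.94% of all probe sets tested), and to 4 above and 11 below at 48 h (12.2% and 12.5%). Members lying on the same side of their control in all 3 pairs numbered 9 above and 13 below at 24 h (17.8% and 20.3% of all) and 9 above and 18 below at 48 h (22.8% and 25.4%). The median log2 ratio of the members was -0.05 at 24 h and -0.07 at 48 h, and that of all probe sets tested was -0.01 at both times. Because earlier results of these data were known when the members were chosen, these shares only describe the members.

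**Figure D1:**
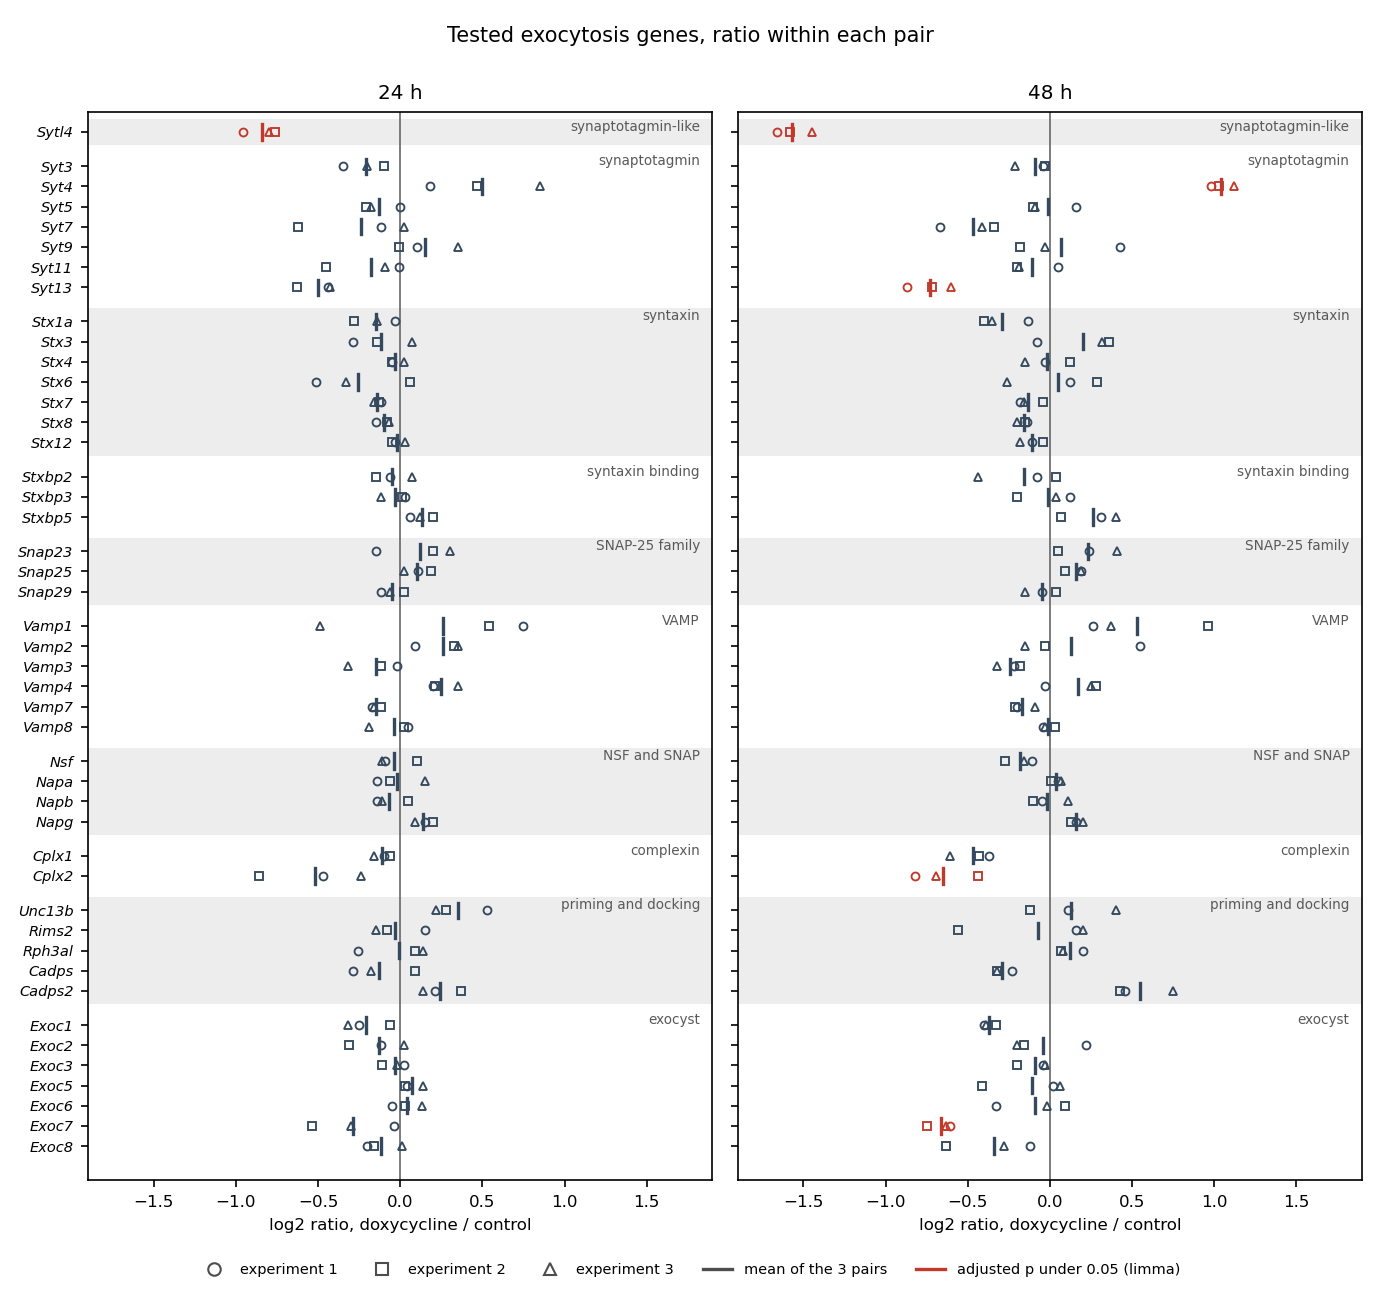
Log2 ratio of doxycycline over control signal (x axis) for the 45 tested exocytosis genes (y axis, in bands by role) at 24 h and 48 h. Symbols are the 3 same-numbered pairs, bars their mean, and red marks an adjusted p under 0.05 by limma. Sytl4 stands furthest to the left at both times, at -0.84 and -1.57, and Syt4 furthest to the right at 48 h, at 1.04.

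Sytl4 encodes granuphilin, a Rab27a effector that docks insulin granules at the plasma membrane by binding syntaxin 1A and Munc18. At 24 h its normalized signal was 1672, 3216 and 3391 in control replicates 1, 2 and 3, and 858, 1896 and 1943 with doxycycline. The lowest control array, that of replicate 1, lay below the highest doxycycline arrays, so the groups overlapped, while within each pair the doxycycline array was the lower, with log2 ratios of -0.96, -0.76 and -0.80. At 48 h the signal was 3177, 2981 and 3478 in the controls, against 1003, 995 and 1274 with doxycycline. Here the groups did not overlap, and the doxycycline signal was 66.2% below control, against 44.2% at 24 h. The log2 fold change at 48 h was -1.57 (SE 0.08, 95% interval -1.77 to -1.36, adjusted p = 0.00669 by limma). Among the 15521 probe sets tested it ranked 13 from the lowest at 24 h and 6 from the lowest at 48 h.

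Whether the effect of doxycycline on Sytl4 differed between the times was tested directly. The effect at 48 h minus that at 24 h was -0.72 (SE 0.11), with an unadjusted p of 2.19e-04 by limma and an adjusted p of 0.59, so it did not pass. No probe set of the 15521 passed in this comparison (unadjusted, 520 were above and 516 below 0 with p under 0.05, 3.35% and 3.32%). Of the members, 5 were under 0.05 unadjusted, namely Sytl4, Cplx1 (-0.37), Syt4 (0.54), Exoc7 (-0.37) and Cadps2 (0.31).

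The call of Sytl4 at 24 h was lost when any 1 of the 3 experiments was left out, and also without the pairing, without the filter on dim probe sets, with all 18 arrays in the fit and by the methods' t-test. Over 12 alternative settings its log2 fold change at 24 h stayed between -0.88 and -0.78 and its adjusted p ran from 1.03e-04 to 1. At 48 h the fold change stayed between -1.62 and -1.52 and 9 of the 12 settings called it. In this balanced design, settings that alter only the test, the pairing, the filter or the arrays fitted together cannot move the fold change. Its narrow range was thus partly fixed in advance.

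The stretch upstream of Sytl4 is shown because this gene carries the largest change among the members. It covers the 194 bases of the RefSeq promoter window that lie outside the annotated gene, at chrX:101479208-101479401 on the minus strand of the GRCr8 rat genome, and 47.4% of its bases are G or C:
Sytl4: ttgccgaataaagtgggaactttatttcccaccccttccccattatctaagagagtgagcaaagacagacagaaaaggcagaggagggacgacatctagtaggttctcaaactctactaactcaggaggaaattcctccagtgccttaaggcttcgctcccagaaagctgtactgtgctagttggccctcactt
The 250 bases before the start that the table gives for each gene were searched on both strands for letters bound by factors of the unfolded protein response and related factors, and a match would stand in capitals. The ER stress elements ERSE and ERSE-II and the XBP1 core TGACGTGG were in 0 of the 42 members with a promoter in the table, against 0.0765%, 0.0437% and 0.55% of 27457 promoters. The amino acid response core TGATGNAA was in 1 member, Stxbp3, against 3.27% of all. The cyclic AMP element TGACGTCA was in Napa and Vamp1 (4.76%, against 1.7%), and the E-box CACGTG in 7 members (16.7%, against 5.79%), none of them called at either time. Member promoters had a median GC content of 62.8%, against 52% of all promoters. The windows of Sytl4, Cplx2 and Syt4 held none of the 6 motifs, and Syt13 and Exoc7 had no window in the table. A single start was used per gene, and for several members, such as Cplx2 and Napa, the window lay inside the annotated gene. For those members the search does not cover the sequence upstream of the gene.

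Sytl1, Sytl2 and Sytl3, the relatives of granuphilin with the same Rab27-binding design, were dim on these arrays. The signal of Sytl1 ran from 31.7 to 122 over the 12 arrays of 24 h and 48 h, and that of Sytl2 from 18.6 to 61.2. Sytl3 was at the floor of 5.99 in 9 of those 12 arrays. The groups overlapped for each of these genes at both times.

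Among the synaptotagmins, Syt4 rose and Syt13 fell at 48 h while the other 5 tested did not pass. Syt4 is a synaptotagmin of secretory vesicles that lacks the calcium binding of the classic members of the family. Its signal at 48 h was 746, 666 and 593 in the controls, against 1473, 1355 and 1286 with doxycycline, without overlap and with log2 ratios of 0.98, 1.03 and 1.12. Its log2 fold change was 1.04 (SE 0.07, adjusted p = 0.0133 by limma), a mean ratio of 2.06 ± 0.0991 (SD, n = 3 pairs). It ranked 68 from the highest of 15521. At 24 h Syt4 was at 838, 843 and 646 in the controls, against 948, 1171 and 1162 with doxycycline, again without overlap, and did not pass (log2 fold change 0.50, SE 0.14, adjusted p = 0.215 by limma). A second probe set of Syt4 also rose at 48 h, by less, its pairs lying at 0.45, 0.68 and 0.72 (adjusted p = 0.0378 by limma).

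Syt13, an atypical synaptotagmin without calcium-binding residues, had a signal of 804, 543 and 534 in the 48 h controls and of 440, 329 and 352 with doxycycline. The groups did not overlap, and its log2 fold change was -0.73 (SE 0.08, adjusted p = 0.0277 by limma). At 24 h it was at 442, 659 and 509 in the controls, against 326, 424 and 379 under the drug, below control in all 3 pairs, with a log2 fold change of -0.50 that did not pass (adjusted p = 0.0972 by limma).

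The calcium sensors of insulin granule release did not pass. Syt7, a sensor of high calcium affinity, was at 547, 508 and 540 in the 48 h controls and at 344, 401 and 407 with doxycycline, which did not overlap, with a log2 fold change of -0.47 (SE 0.09, adjusted p = 0.0688 by limma). At 24 h its log2 ratios were -0.12, -0.62 and 0.02. Syt9 and Syt5, both calcium-binding synaptotagmins of dense-core granules, had log2 fold changes of 0.07 (95% interval -0.28 to 0.42) and -0.01 (-0.24 to 0.21) at 48 h, with overlapping groups. Syt3 and Syt11 were at -0.09 and -0.11, also with overlap, and the dim Syt1 ran from 42 to 145 over the 12 arrays of 24 h and 48 h.

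None of the 16 SNARE genes passed at 24 h or at 48 h by limma. Without adjustment, 2 were above control and 0 below with p under 0.05 at 24 h (7.75% and 6.94% of all probe sets tested), and 1 above and 2 below at 48 h (12.2% and 12.5%). No SNARE passed by the methods' t-test after adjustment. At 48 h their median log2 ratio was -0.02 and the 95% interval of 15 of the 16 lay within 1.5-fold of no change in either direction. The exception was Vamp1, whose interval ran from 0.13 to 0.93 and which, with the other 15, stayed within 2-fold.

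Stx1a, the plasma membrane syntaxin of granule fusion, was at 932, 1106 and 1011 in the 48 h controls and at 855, 837 and 791 with doxycycline. The groups did not overlap, but the log2 fold change of -0.29 (SE 0.09) did not pass (adjusted p = 0.132 by limma). A second probe set of Stx1a gave -0.26, with an adjusted p of 0.119. At 24 h the groups of Stx1a overlapped and its log2 ratios were -0.03, -0.28 and -0.14.

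Snap25, the other plasma membrane SNARE of granule fusion, was higher with doxycycline in all 6 pairs of 24 h and 48 h by small amounts, with log2 ratios from 0.02 to 0.19. Its groups overlapped at both times and its log2 fold change at 48 h was 0.16 (95% interval -0.03 to 0.34). Vamp2, the granule SNARE, was higher in all 3 pairs at 24 h (0.09, 0.33 and 0.35) and at 0.55, -0.03 and -0.15 at 48 h. In the 48 h control of replicate 1 Vamp2 was at 777, against 1806 and 1887 in the other controls, and its paired doxycycline array, at 1137, was also below the others.

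The remaining SNAREs serve other membrane steps. Stx4 and Snap23, of the plasma membrane, had 48 h log2 fold changes of -0.02 and 0.23, and Stx3, which has been tied to fusion between granules, was at 0.20. Stx6 of the trans-Golgi network was at 0.05, and Stx7, Stx8 and Stx12 of endosomes were at -0.13, -0.16 and -0.11. Stx7, Stx8, Vamp3 and Vamp7 were lower in all 6 pairs of 24 h and 48 h, by 0.02 to 0.32 on the log2 scale. Their groups did not overlap at 48 h, and none of them passed, with adjusted p-values by limma of 0.355, 0.235, 0.136 and 0.241. Snap29, Vamp4 and Vamp8 were at -0.05, 0.17 and -0.01 at 48 h, with overlapping groups. Vamp1 was at 117, 75.1 and 107 in the 48 h controls and at 140, 146 and 138 with doxycycline, an adjusted p of 0.126 by limma, and at 24 h its pairs differed in sign.

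The proteins that bind or recycle SNAREs did not pass at either time. Of the 3 syntaxin-binding genes tested, Stxbp2 (Munc18-2) and Stxbp3 (Munc18c, the partner of syntaxin 4) had 48 h log2 fold changes of -0.16 (95% interval -0.46 to 0.14) and -0.01 (-0.25 to 0.22). Stxbp5 (tomosyn), which blocks SNARE assembly, was higher in all 6 pairs and at 0.26 at 48 h (adjusted p = 0.181 by limma), with overlapping groups. The ATPase Nsf was at -0.18 at 48 h, and its 2 other tested probe sets gave -0.27 and -0.29, none of the 3 past the threshold. Its adaptors Napa, Napb and Napg were at 0.04, -0.02 and 0.16, and the 95% intervals of all 4 of these genes lay within 1.5-fold of no change at both times.

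Of the complexins, which bind the assembled SNARE bundle, Cplx2 fell at 48 h. Its signal was 1587, 1223 and 1200 in the controls, against 902, 904 and 746 with doxycycline. The groups did not overlap, and the log2 fold change was -0.65 (SE 0.10, adjusted p = 0.0428 by limma), a signal 36.1% below control. At 24 h Cplx2 was at 1137, 1652 and 1043 in the controls and at 820, 913 and 881 with doxycycline, without overlap, and did not pass (log2 ratios -0.47, -0.86 and -0.24, adjusted p = 0.19 by limma). Cplx1 was at 702, 788 and 831 in the 48 h controls and at 543, 584 and 543 with doxycycline. This log2 fold change of -0.47 (SE 0.08) lay just outside the threshold, with an adjusted p of 0.0572 by limma, and at 24 h Cplx1 was at -0.11.

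The priming and docking genes gave no call, and the 2 CAPS genes, whose products prepare dense-core granules for fusion, lay on opposite sides of 0 at 48 h. Cadps was at 1846, 1588 and 1598 in the controls and at 1569, 1276 and 1280 with doxycycline (log2 fold change -0.29, adjusted p = 0.094 by limma). Cadps2 was at 344, 340 and 259 in the controls and at 473, 457 and 436 with doxycycline (0.55, SE 0.10, adjusted p = 0.0563 by limma). Neither pair of groups overlapped. Cadps2 was also higher in each pair at 24 h, by 0.21, 0.37 and 0.14. The difference between the 2 genes was not tested.

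Unc13b (Munc13-2), which opens syntaxin for SNARE assembly, was at 188, 186 and 198 in the 24 h controls and at 272, 227 and 231 with doxycycline, without overlap (log2 fold change 0.35, SE 0.09, adjusted p = 0.201 by limma). At 48 h its groups overlapped and the fold change was 0.13. Rims2, a Rab3 effector of the release site, was at -0.03 and -0.07 at 24 h and 48 h, and Rph3al (Noc2), a Rab effector of endocrine granules, at -0.01 and 0.12. The dim Unc13a ran from 66 to 141, Rims1 from 34.5 to 66.7 and Doc2b, a calcium-binding priming factor, from 14.1 to 87.2 over the 12 arrays, with overlapping groups.

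The exocyst tethers vesicles to the plasma membrane ahead of SNARE pairing, and Exoc7 (Exo70) is its subunit that binds membrane lipids. Exoc7 fell at 48 h, from 858, 778 and 568 in the controls to 562, 463 and 366 with doxycycline. The groups were separated narrowly, by the replicate 3 control at 568 and the replicate 1 doxycycline array at 562, while the log2 ratios of the pairs were close together at -0.61, -0.75 and -0.63. The log2 fold change was -0.66 (SE 0.07, adjusted p = 0.0261 by limma). A second probe set of Exoc7 was lower in all 3 pairs by less, at -0.31, and did not pass (adjusted p = 0.0966 by limma). At 24 h the log2 ratios of Exoc7 were -0.04, -0.54 and -0.30, with overlap.

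The other 6 exocyst genes tested did not pass. By the probe set used for each gene, the mean log2 ratios of the 7 ran from -0.66 to -0.04 at 48 h, beside 8134 of the 15521 probe sets tested that lay below 0. That all 7 lay below 0 depends on the probe set used. The other tested probe sets of Exoc3 were at 0.03, 0.06 and 0.14 at 48 h, and that of Exoc5 was at 0.03. Exoc1 was at 492, 416 and 442 in the controls and at 374, 330 and 338 with doxycycline, without overlap (log2 fold change -0.37, adjusted p = 0.0633 by limma), and its other 2 tested probe sets gave -0.50 and -0.20. Exoc8 was at -0.34 without overlap, and Exoc2, Exoc3, Exoc5 and Exoc6 lay between -0.11 and -0.04, with overlap.

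**Figure D2:**
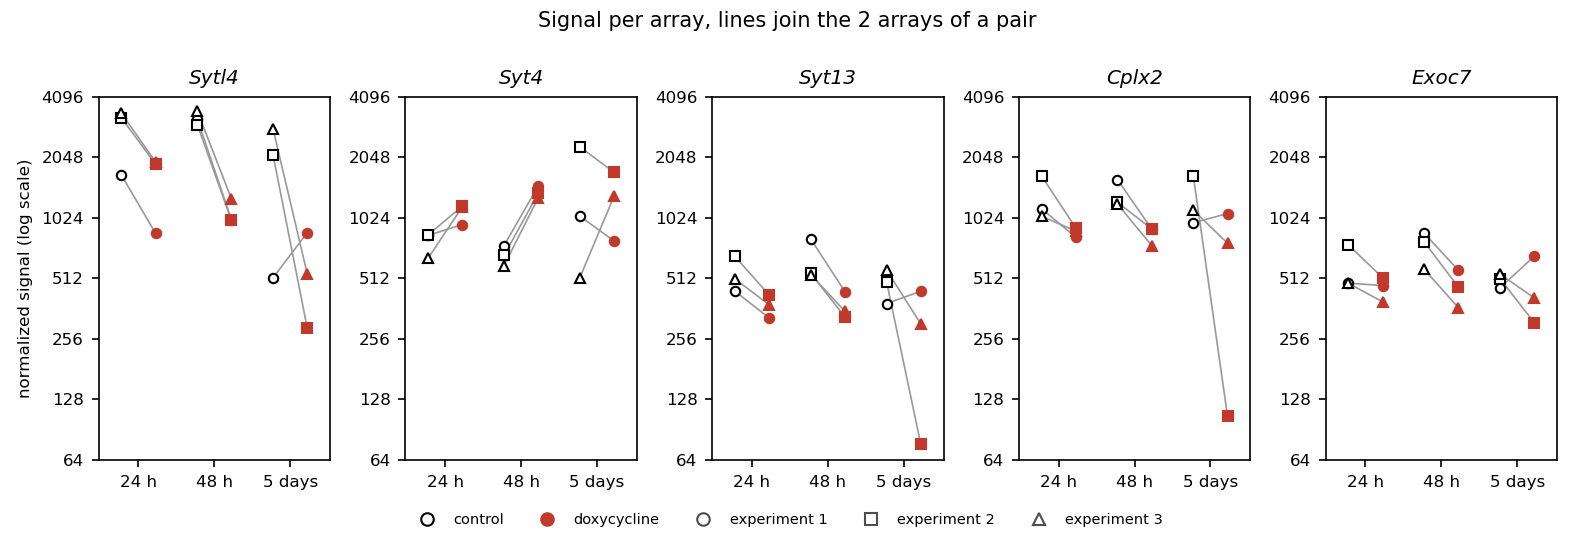
Normalized signal per array (y axis, log scale) of the 5 genes called at 24 h or 48 h, with control (open) and doxycycline (filled) arrays by time and lines joining same-numbered pairs. At 48 h all 3 lines run in 1 direction for each gene, and at 5 days, as labelled, the replicate 1 line of Sytl4 runs up from 517 to 865 while the others run down.

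The 48 h calls of Syt4, Syt13, Cplx2 and Exoc7 were lost when any 1 of the 3 experiments was left out (0 members called without replicate 1 and 1, Sytl4, without replicate 2 or 3), and all 5 were lost without the filter on dim probe sets and with all 18 arrays in 1 fit. Without the pairing Sytl4 and Syt4 were still called, and by the methods' t-test Sytl4 alone. The direction of all 5 was the same in all 12 alternative settings at both times, which was largely fixed in advance. Settings that alter only the test, the pairing, the filter or the arrays fitted together leave the fold change as it is. All 3 pairs of each gene lay on 1 side of 0 at both times, so leaving out a replicate could not turn the direction. Over the 12 settings the 48 h log2 fold change of Syt4 ran from 1.00 to 1.07, that of Syt13 from -0.80 to -0.66, that of Cplx2 from -0.75 to -0.56 and that of Exoc7 from -0.69 to -0.62.

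Counted without a model, 14 members had 48 h groups that did not overlap with doxycycline lower (31.1%, against 10.8% of all probe sets tested) and 4 with doxycycline higher (8.89%, against 11.3%). At 24 h there were 4 lower (8.89%, against 3.72%) and 3 higher (6.67%, against 5.03%). Over the 6 pairs of 24 h and 48 h, 12 members were lower in every pair, namely Sytl4, Syt3, Syt13, Stx1a, Stx7, Stx8, Vamp3, Vamp7, Cplx1, Cplx2, Exoc1 and Exoc7 (26.7%, against 10.7% of all probe sets tested). The 5 that were higher in every pair were Syt4, Stxbp5, Snap25, Napg and Cadps2 (11.1%, against 10.1%). The members were chosen with earlier results of these data known, so these shares describe them and are no test of the pathway. These counts use 1 probe set a gene. The other tested probe set of Syt3 was at 0.15, 0.00 and 0.21 at 24 h and at -0.04, 0.53 and -0.21 at 48 h, and other tested probe sets of Napg, Stxbp5, Exoc1 and Exoc7 also had pairs on either side of 0. Those of Syt4 and Stx1a lay on the same side as the probe set used in all 6 pairs.

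Of the 45 tested genes, 13 had more than 1 tested probe set, 31 in all. Sytl4, Syt13 and Cplx2 had 1 probe set only, so their values rest on it alone.

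**Figure D3:**
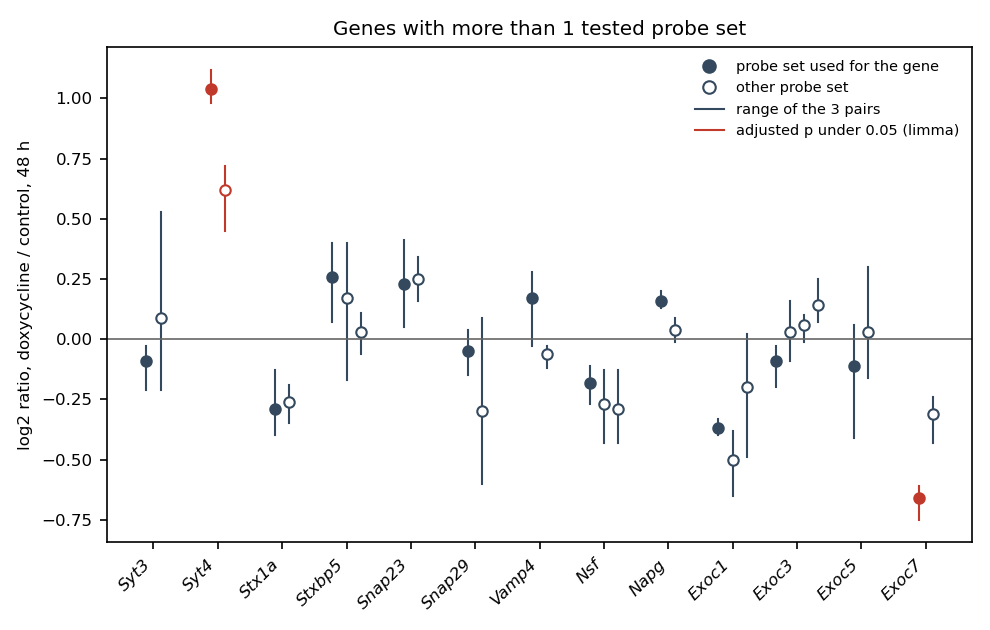
Log2 ratio of doxycycline over control at 48 h (y axis) for each tested probe set of the 13 genes that have more than 1 (x axis). Circles are means over 3 pairs, lines the range of the pairs, filled circles the probe set used for the gene, and red an adjusted p under 0.05 by limma. Both probe sets of Syt4 were called, and of Exoc7 only the one used, at -0.66 against -0.31.

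Markers of other cells were read beside these results. Of 6 markers of other islet cells 5 had a probe set, and Sst, Hhex, Ppy and Ghrl were dim. The exception was Gcg, the glucagon gene, which fell at 48 h with 1909, 1470 and 2057 in the controls, against 261, 271 and 292 with doxycycline. The summed signal of that list ran from 1591 to 2186 in the 48 h controls and from 368 to 401 with doxycycline, and its part in the members' changes was not tested. Of the 9 beta cell markers, Mafa and Pcsk2 fell at 48 h and 0 rose, and the summed signal ran from 105807 to 116489 in the controls and from 92302 to 104648 with doxycycline. Of the 5 neuron markers, whose cells share much of this machinery, 4 were above the filter and none was called, with sums of 2969 to 3073 and 3029 to 3281 at 48 h.

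Beyond the members, 87 other genes of the exocytosis and SNARE pathway were listed, 77 of them with a probe set and 51 tested. By limma none passed at 24 h (unadjusted, 9 above and 2 below control with p under 0.05, beside 7.75% and 6.94% of all probe sets tested). At 48 h the unadjusted counts were 10 above and 9 below, beside 12.2% and 12.5%, and 2 rose (Stx18 and Bet1) and 1 fell (Rimbp2), 3 of 51 beside 3.52% of all probe sets tested. Stx18, a SNARE of the ER membrane, was at 565, 566 and 486 in the controls and at 811, 772 and 805 with doxycycline (log2 fold change 0.57, adjusted p = 0.0434). Bet1, a SNARE of transport between the ER and the Golgi, was at 3058, 2763 and 2759 in the controls and at 4249, 3848 and 3728 (0.46, adjusted p = 0.0414). Rimbp2, which links RIM proteins to calcium channels, was at 3764, 3849 and 4286 in the controls and at 2597, 2836 and 3266 with doxycycline (-0.46, adjusted p = 0.0486). None of the 3 had overlapping groups. Rab27a, the GTPase that granuphilin binds, named here for that reason, had log2 ratios of -0.13, -0.12 and -0.18 at 24 h and of -0.04, -0.36 and -0.13 at 48 h and did not pass.

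At 5 days no member was called as labelled, and none of the 15521 probe sets was by limma. Unadjusted p-values under 0.05 went to 172 above control (1.11%) and 213 below it (1.37%), 0 members among them, and the methods' t-test called 0 members after adjustment. In all 3 pairs 5 members were above control and 1 below it (13.6% and 9.84% of all probe sets tested). The median log2 ratio of the members was -0.06, against 0.03 over all probe sets tested. The 95% intervals were wide at this time, with those of 16 of the 45 members lying within 1.5-fold of no change, against 40 at 24 h and 35 at 48 h, so that the absence of calls does not show that the members were unaltered. The pairs did not run together. Sytl4 was at 517, 2093 and 2820 in the libraries labelled control and at 865, 289 and 538 in those labelled doxycycline, log2 ratios of 0.74, -2.86 and -2.39. The library labelled control, replicate 1, was the lowest of the 9 control arrays of Sytl4 over all times.

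In the replicate 2 pair, which holds the array with the raised GAPDH 3'/5' ratio, several members had log2 ratios lower than in either other pair. Cplx2 was at 0.15, -3.97 and -0.55, Syt7 at 0.04, -3.41 and -0.06, and Syt13 at 0.20, -2.68 and -0.89. For Stx1a the libraries labelled control gave signals of 1102, 999 and 1077, and those labelled doxycycline gave 1228, 249 and 896. Syt9 was at -0.15, -1.86 and 0.43, and Syt11 at 0.70, -1.58 and -0.30. The part of RNA quality in these values was not tested. Syt4, called at 48 h, was at -0.41, -0.42 and 1.34, and Cadps2 at -0.36, 1.12 and 0.46.

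In the replicate 3 pair, where all 10 ER stress genes were higher with doxycycline and the GAPDH ratio was within the range of the other arrays, Sytl4, Syt13, Cplx2 and Exoc7 were below 0 (-2.39, -0.89, -0.55 and -0.39) and Syt4 above it (1.34). This is 1 pair, which gives no error. At 5 days 1 member, Vamp1, had groups that did not overlap with doxycycline lower (2.22%, against 2.76% of all probe sets tested) and 1, Stxbp3, with doxycycline higher (2.22%, against 3.73%).

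**Figure D4:**
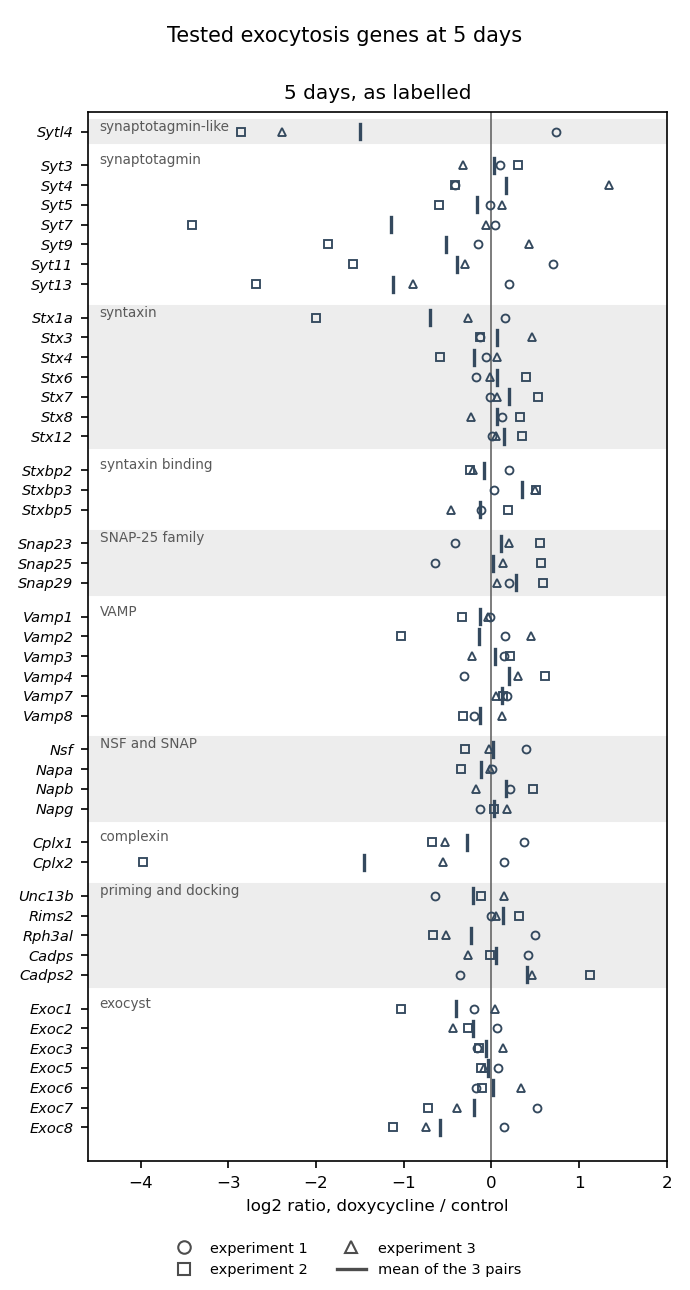
Log2 ratio of doxycycline over control at 5 days, as labelled (x axis), for the 45 tested exocytosis genes (y axis, in bands by role). Symbols are the 3 pairs and bars their mean. The replicate 2 squares of Cplx2 (-3.97), Syt7 (-3.41) and Sytl4 (-2.86) lie furthest to the left, and the replicate 1 circle of Sytl4 lies on the other side of 0, at 0.74.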

How the data were processed

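The authors made biotin-labeled cRNA from total RNA of clone #4S2 and hybridized it to Affymetrix rat arrays, 1 per sample. They deposited a linear intensity for each probe set, scaled so that the 2% trimmed mean of every array lies near 500. The program behind the intensities was not given in the sources used here. The 18 arrays were quantile normalized, floored at 5.99 (their 10th percentile) and log2 transformed, 57 control probe sets were left out of 31099, and the upper 50% by mean signal, 15521 of 31042, were tested. The 3 times were fitted apart with limma 3.58.1 (R 4.3.3), with same-numbered arrays as pairs, Benjamini-Hochberg adjustment and a threshold of 0.05. The difference between 48 h and 24 h came from 12 arrays. The pairing rests on the independent experiments, and when it was checked, same-numbered arrays deviated together from their groups, with r of 0.256 to 0.667 at 24 h and 48 h and of 0.109 to 0.149 at 5 days. No 2 of the 18 arrays were identical. Gene names came from the platform annotation. Figures and counts used Python 3.11.15, pandas 2.3.3 and matplotlib 3.10.9. The procedure was tested on simulated data. Values are named for called members, the 5 largest mean ratios at 24 h and 48 h, core members and called genes of the wider pathway, and others only for completeness. The members and lists were chosen with earlier results of these data known. Alternatives left out the filter, the pairing or a replicate, fitted 12 or 18 arrays together, changed the scaling, the offset, the probe set rule or the variance estimate, or used the methods' t-test.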

Additional observations from a re-analysis of the deposited data

Results flagged for a closer look

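Among the tested members, 4 differences between times were flagged because every pair lay on one side of 0 at the earlier time and every pair on the other at 5 days. How many of all probe sets tested do the same was not counted, so the 4 are not set apart from the array. Of all probe sets tested, 20.3% were lower in all 3 pairs at 24 h. At 48 h 25.4% were lower and 22.8% higher in all 3, and at 5 days 9.84% and 13.6%. None of these differences was tested, and each rests on the 5-day libraries as labelled, in which replicate 1 goes against its labels in the ER stress genes. For Vamp7, a SNARE of late endosomes and lysosomes, the mean log2 ratio at 5 days minus that at 24 h was 0.27 and minus that at 48 h 0.29, from ratios of -0.17, -0.12 and -0.16 at 24 h and of -0.20, -0.21 and -0.09 at 48 h, beside 0.18, 0.13 and 0.05 at 5 days. For Stx12, an endosomal syntaxin, 5 days minus 48 h was 0.24, from -0.11, -0.04 and -0.18 to 0.01, 0.35 and 0.05. For Vamp1 it was -0.66, from 0.26, 0.96 and 0.37 to -0.01, -0.34 and -0.04.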

How the results depend on the processing

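Against 1 member called at 24 h and 5 at 48 h, the fit of the 12 arrays of both times called 2 and 8, limma with a trended and robust variance 4 and 13, all 18 arrays in 1 fit 0 and 0, no filter on dim probe sets 0 and 0, and the methods' t-test after adjustment 0 and 1. Without the replicate block (the pairing) the counts were 0 and 2. Leaving out 1 replicate gave 0 at 24 h each time and 0 to 1 at 48 h. An offset of 16, median-centred arrays, no quantile normalization and the use of any probe set kept both counts within 1.5 times. Over all probe sets tested the calls were 32 and 546, against 214 and 1610 with 12 arrays, 547 and 2383 with the trended and robust variance and 0 and 0 with 18 arrays. At 5 days 0 members were called in the main fit, which used the 6 arrays of that time. With the labels of replicate 1 exchanged in the fit of 18 arrays, 4 were called (Sytl4, Cplx1, Rph3al and Exoc7, all lower), among 425 of all probe sets tested. The exchange was taken from the ER stress genes and not from any label. Both the labels and the arrays fitted differ between these 2 fits, so the step from 0 to 4 cannot be put down to the labels alone. With replicate 1 left out, the log2 fold changes of these 4 were -2.62, -0.60, -0.59 and -0.56. None of the 4 passed then, each with an adjusted p of 0.779 by limma. The difference between 48 h and 24 h had 0 members called in every fit. The 5 called members kept their direction in all 12 alternatives, many of which could not have altered it. Median-centring moved the median over all probe sets tested at 5 days to 0.24 and that of the members to 0.19, with 13 of 45 members below 0 in place of 24, and left 24 h and 48 h within 0.02 of the values given. The cause of the lost calls was not tested, and leaving out a replicate changes both the number of arrays and the experiments in the fit. With 3 pairs a time, a member whose change is small beside the spread between pairs cannot be told from no change.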

Other observations

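Besides Stx18 and Bet1, other SNAREs of transport between the ER and the Golgi in the wider pathway list were read after the values were seen, so they support nothing by themselves. Stx5, the syntaxin of the cis-Golgi, was at 1430, 1362 and 1204 in the 48 h controls and at 1813, 1895 and 1998 with doxycycline, and did not pass (log2 fold change 0.52, adjusted p = 0.0661 by limma). Bet1l was at 0.42 (adjusted p = 0.0527 by limma) and Gosr2 at 0.29 (adjusted p = 0.105 by limma), both higher with doxycycline in all 3 pairs without overlap of the groups. Sec22b, Gosr1 and Ykt6 were at 0.10, 0.11 and -0.07, with overlapping groups, and the ER SNAREs Use1 and Bnip1 at 0.13 (adjusted p = 0.376 by limma) and 0.06 (adjusted p = 0.667 by limma). At 24 h Bet1 was at 2716, 2923 and 2826 in the controls and at 4365, 4398 and 4205 with doxycycline, the groups well apart and the adjusted p of limma at 0.0592.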
